A study of Mus musculus with 2 samples.

Results

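Retinoic acid is a vitamin A derivative that cells make, carry, sense and destroy with dedicated proteins, and 8 of the 32285 genes in the deposited gene table cover these steps here. They were taken by symbol: Aldh1a2, which makes retinoic acid from retinal, Dhrs3, which returns retinal to retinol, Cyp26a1, which degrades retinoic acid, the cellular carriers Crabp1 and Crabp2, and the nuclear receptors Rara, Rarb and Rarg. All 8 symbols were found once each, and their unique molecular identifiers (UMIs, 1 per captured RNA molecule) were counted in both libraries and cell by cell in LB. R1 mouse embryonic stem cells were cultured in N2B27 medium for 72 hours and profiled by 10x Genomics 3′ single-cell RNA sequencing, with 1 library per condition. The LB culture received BMP4 and the self-renewal cytokine LIF, on gelatin. The LBPXRS culture received LIF and BMP4 as well, on fibronectin, together with PD0325901 (an inhibitor of MEK), Xav939 (an inhibitor of tankyrase, which dampens WNT signalling), SB431542 (an inhibitor of the activin and NODAL receptors) and a compound labelled Resorcyclic lactone. Retinoic acid was an added agent in neither condition, and the labels do not give the vitamin A content of the medium. Because each condition is 1 library, and its agents and its substrate differ together, the effects of the agents, the substrate and the culture cannot be told apart, and no p-value is given.

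Retinol is oxidised to retinal in a reversible step, and retinal is oxidised to retinoic acid in an irreversible one. Retinoic acid then binds RAR receptors, which sit on DNA with RXR partners at paired copies of a short sequence and switch nearby genes. In the gastrulating mouse embryo, retinoic acid is made in paraxial and lateral mesoderm and is kept out of other regions by CYP26 enzymes, and in embryonic stem cell cultures added retinoic acid drives exit from pluripotency. Cyp26a1 and Rarb are both known as direct targets of the receptors.

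For that last reason the promoter windows of Cyp26a1 and Rarb are shown. They are the 250 bases before the RefSeq start site, written in the direction of the gene, from RefSeq on GRCm38.p6. The capitals mark a DR5 motif, the type of site on which RAR and RXR are best known to bind. It was searched on both strands as 2 hexamers in the same direction with any 5 bases between them. Each hexamer could be AGGTCA, the textbook form of the sequence. The first variant also accepted in its place was AGTTCA. A further variant accepted by the search was GGGTCA. The last of the accepted variants was GGTTCA.
Cyp26a1, chr19:37697558-37697807, plus strand: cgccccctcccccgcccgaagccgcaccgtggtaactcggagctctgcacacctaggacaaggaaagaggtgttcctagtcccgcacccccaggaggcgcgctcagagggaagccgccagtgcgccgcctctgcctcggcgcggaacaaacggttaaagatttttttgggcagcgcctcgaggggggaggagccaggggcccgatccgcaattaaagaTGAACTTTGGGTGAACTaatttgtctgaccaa
Rarb, chr14:16575477-16575726, minus strand: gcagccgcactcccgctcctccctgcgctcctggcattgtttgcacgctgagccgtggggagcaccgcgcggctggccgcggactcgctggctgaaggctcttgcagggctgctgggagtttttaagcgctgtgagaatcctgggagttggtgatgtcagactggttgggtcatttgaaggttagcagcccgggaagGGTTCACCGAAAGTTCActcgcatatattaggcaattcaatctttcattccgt
In Cyp26a1 the motif lay 32 to 16 bases before the start and ran on the other strand, where it reads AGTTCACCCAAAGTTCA. In Rarb it lay 53 to 37 bases before the start and ran with the gene. Of the 8 genes, 7 were in the promoter table, with 13 windows, and Cyp26a1 and Rarb were the 2 of 7 with a DR5 motif. Among all windows of this length, 29 of 32851 held it (0.0883%), in 28 of 27025 genes. The same hexamers spaced by 2 bases (DR2) or by 1 base (DR1) were in none of the windows of the 7 genes, against 0.174% and 0.164% of all windows. Of the 28 genes with a DR5 motif, 16 were in the gene table and 2 reached 10 CPM (UMIs scaled to a library total of 1000000) in either library, Cyp26a1 and Blvrb. Cyp26a1 and Rarb were already known as targets of the receptors, so their matches show no enrichment among the 7 genes. These matches describe letters in a window, and binding was not measured here.

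LB gave 1783 kept cells and 45490517 UMIs, and LBPXRS 2705 kept cells and 51832444 UMIs, with medians of 25418 and 19058 UMIs per cell. The stem cell label was checked with Pou5f1, Sox2 and Nanog, core pluripotency factors: Pou5f1 was at 719 CPM in LB and 990 CPM in LBPXRS, Sox2 at 123 and 232, and Nanog at 75.2 and 177. LB also held T, Mesp1 and Hand1, markers of primitive streak and mesoderm, at 101, 35.7 and 84.1 CPM, against 0.0579, 0.540 and 0 CPM in LBPXRS, so the libraries differed in the cell classes present. The libraries shared 10 cell barcodes, 8 of them among kept cells. Intervals below are exact 95% intervals and cover counting error alone. Shares of cells were computed on 5000 UMIs drawn at random from every cell, which kept 1733 LB and 2621 LBPXRS cells.

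Cyp26a1 differed most between the libraries among the members that reached 10 CPM, and Crabp1 was the 1 such member with more RNA in LBPXRS. In a summed library, fewer cells of a type and less RNA per cell cannot be told apart, so shares of cells are given with the levels. A log2 ratio below is that of LBPXRS to LB after 1 was added to both CPM values, which understates the change of low genes. Of the 8 genes, 4 (Cyp26a1, Crabp1, Rara and Rarg) reached 10 CPM in either library, the minimum for a count by size. At this minimum 1 member, Cyp26a1, was at least 4-fold lower in LBPXRS, against 2.88% of all 7661 genes that reached it, and 0 were at least 4-fold higher, against 2.04%. At 2-fold, 2 members were lower (Cyp26a1 and Rarg, against 10.4% of all genes) and 1 was higher (Crabp1, against 7.98%). The median log2 ratio over all 7661 genes was -0.17.

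**Figure D1:**
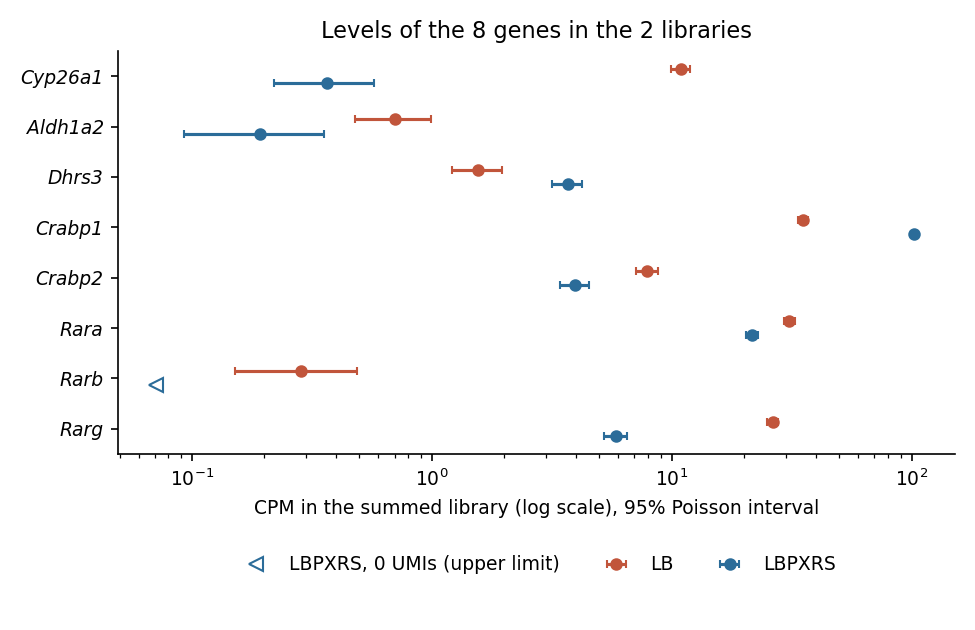
Level of each of the 8 genes in the LB library (red) and the LBPXRS library (blue), in CPM on a log axis, with exact 95% Poisson intervals of the UMI sums. The open triangle for Rarb in LBPXRS stands at the upper end of the interval of a count of 0, and Crabp1 and Dhrs3 are the 2 genes whose LBPXRS point lies to the right.

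Aldh1a2, the main retinoic acid-making enzyme of embryonic mesoderm (ENSMUSG00000013584, GRCm38 chr9:71215789-71296243), was near the limit of detection in both libraries. It had 32 UMIs in 26 LB cells and 10 UMIs in 10 LBPXRS cells, or 0.703 CPM (0.481 to 0.993) and 0.193 CPM (0.0925 to 0.355). The ratio was 3.65-fold lower in LBPXRS (1.75 to 8.32). Within LB, 15 of the 32 UMIs were in the cluster described below as extraembryonic or lateral mesoderm-like, which held 18.8% of all LB UMIs. Its level there was 1.75 CPM (0.980 to 2.89), and the next cluster in order, primitive streak-like at 1.19 CPM (0.437 to 2.59), overlapped it.

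Dhrs3, the retinal reductase (ENSMUSG00000066026, chr4:144892827-144928209), was higher in LBPXRS. Its 71 UMIs in LB gave 1.56 CPM (1.22 to 1.97) and its 191 in LBPXRS 3.68 CPM (3.18 to 4.25), a ratio of 2.36 (1.79 to 3.15) and a log2 ratio of 0.87. Unthinned, 3.53% of LB and 6.69% of LBPXRS cells held a UMI. Thinned shares were 1.10% and 1.14% in the random draw used, while their expectation over all draws was 0.790% and 1.79%, so the draw in LBPXRS was a low one. The LB UMIs were unevenly spread: 31 were in formative or primed pluripotent-like cells (3.77 CPM, 2.56 to 5.35) and 24 in extraembryonic or lateral mesoderm-like cells (2.80 CPM, 1.80 to 4.17). The naive pluripotent-like cluster, with 36.1% of all LB UMIs, had 2 (0.122 CPM, 0.0147 to 0.440). Against these naive-like LB cells alone, the log2 ratio of Dhrs3 was 2.06.

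Cyp26a1, the enzyme that hydroxylates retinoic acid for removal (ENSMUSG00000024987, chr19:37697798-37701536, plus strand), was found mainly in LB. It had 496 UMIs in 166 LB cells and 19 UMIs in 12 LBPXRS cells. These gave 10.9 CPM (9.97 to 11.9) and 0.367 CPM (0.221 to 0.572), which do not overlap. The ratio was 29.7-fold lower in LBPXRS (18.8 to 49.8), with a log2 ratio of -3.12. Cyp26a1 was found in 3.69% of thinned LB cells (2.86 to 4.69), against 0.153% in LBPXRS (0.0416 to 0.390). Within LB the UMIs were concentrated: 77 of the 166 cells held 1 UMI, the highest cell held 16, and the 10 highest cells together held 120. In LBPXRS 7 of the 19 UMIs were in 1 cell, and 14 of the 19 were in a cluster of 712 cells led by Id3, Krt8 and Krt18.

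The LB cells were split into 7 clusters without use of the 8 genes or the other retinoid genes, so the levels below did not define the clusters. Cyp26a1 was at 51.2 CPM (46.6 to 56.3) in 353 cells named extraembryonic or lateral mesoderm-like from markers such as Hand1. It was at 9.33 CPM (6.86 to 12.4) in 228 primitive streak-like cells. The other 5 clusters lay between 0 and 0.467 CPM: 585 naive pluripotent-like cells at 0.304 CPM (5 UMIs), 306 formative or primed pluripotent-like cells at 0.365 CPM (3 UMIs), 77 trophoblast-like cells at 0.467 CPM (1 UMI), 173 unnamed cells led by Calb2 at 0.230 CPM (1 UMI) and 61 unnamed cells led by Slc7a3 with 0 UMIs. The mesoderm-like and streak-like levels did not overlap each other, nor did the streak-like level overlap the next one down. The mesoderm-like cluster held 439 of the 496 UMIs (88.5%) with 18.8% of all LB UMIs. Of its thinned cells, 16.5% carried Cyp26a1 (56 of 340, 12.7 to 20.9), against 0 of 581 naive-like cells (taking 3 counts as the limit, a count of 0 allows up to 0.516%), at median depths of 23885 and 27963 UMIs. By fold over the rest of LB, Cyp26a1 had rank 7 of 5039 genes at 20 CPM or more in that cluster. It passed that minimum only through this cluster (1.54 CPM in the other LB cells), so the rank restates the levels above. Outside the mesoderm-like cluster the log2 ratio of LBPXRS to LB was -0.90, short of 4-fold. Against the naive-like LB cells alone it was 0.067, with 0.304 CPM in those cells and 0.367 CPM in LBPXRS, so the 4-fold difference between libraries was not seen there.

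**Figure D2:**
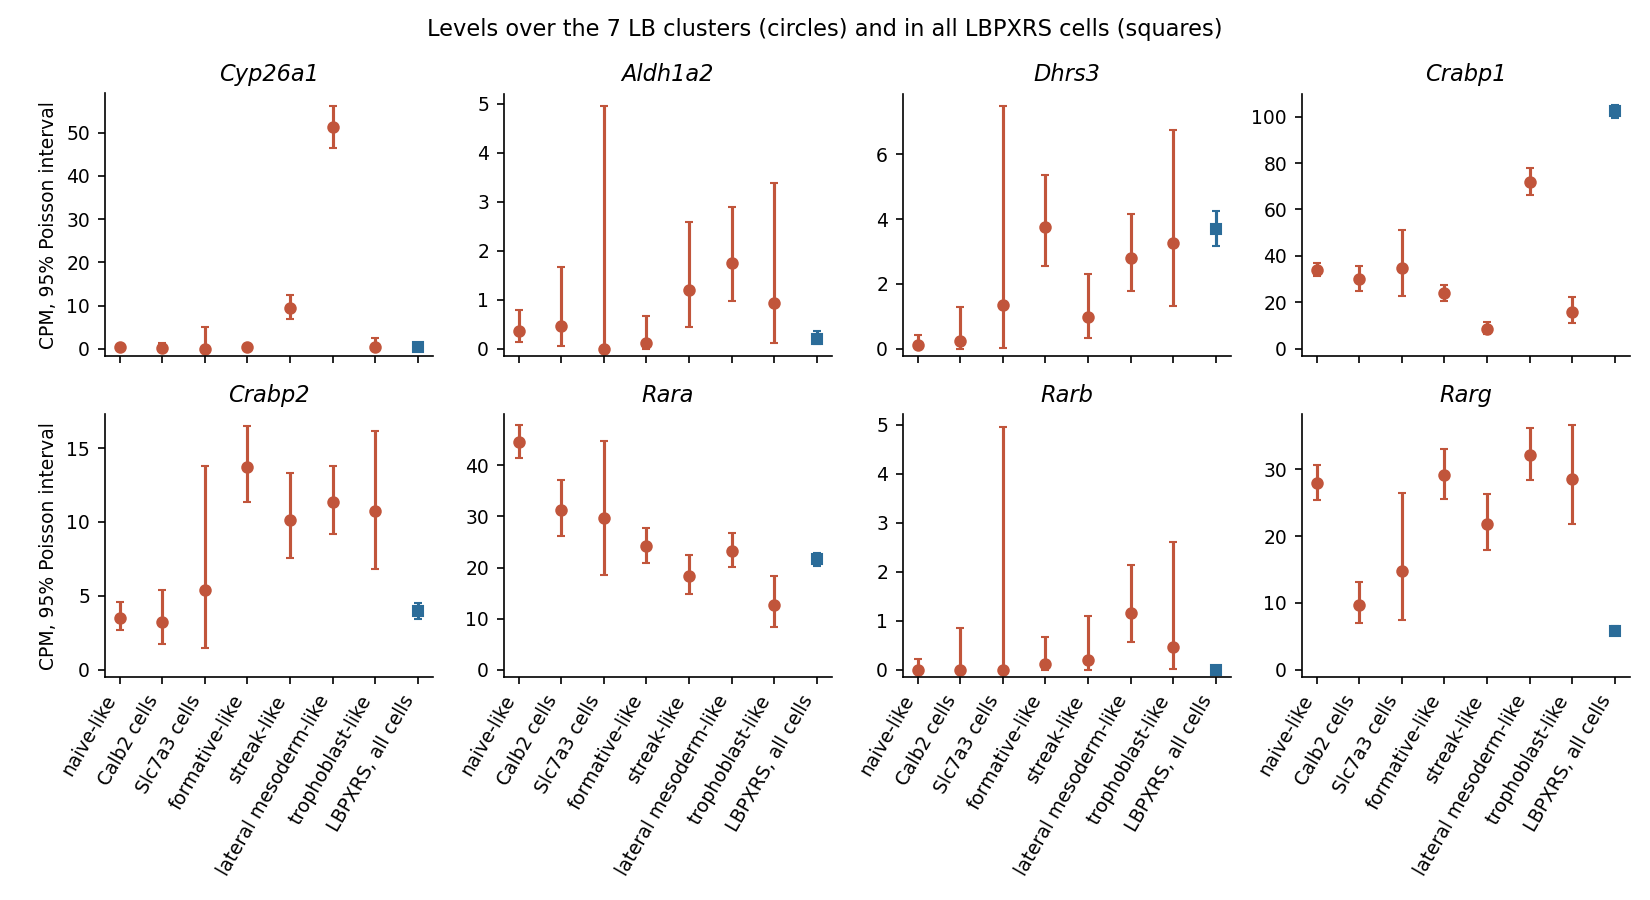
Level of each gene (CPM, linear axis, 95% Poisson interval) in the 7 LB clusters (red circles) and in all LBPXRS cells (blue square); the extraembryonic or lateral mesoderm-like cluster is labelled lateral mesoderm-like. Cyp26a1 stands at 51.2 CPM in that cluster and at 9.33 CPM or below elsewhere, Crabp1 is highest in the same cluster within LB, and Rara is highest in naive-like cells.

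A finer clustering into 15 clusters placed the highest Cyp26a1 level in 120 nascent mesoderm-like cells led by Mesp1, Mesp2 and Lhx1, genes of early mesoderm. There it had 278 UMIs at 114 CPM (101 to 128), and 31.0% of thinned cells carried it (22.6 to 40.4). Next came 51 cells led by Kdr, Vstm2b and Asb4 at 58.1 CPM (45.7 to 72.9), and then 185 extraembryonic or lateral mesoderm-like cells at 21.2 CPM (17.3 to 25.6). These 3 levels did not overlap. The 189 primitive streak-like cells, led by T, were at 6.51 CPM (4.32 to 9.40). A cluster of 19 cells led by Rhox6 was at 7.13 CPM from 1 UMI, and the remaining 10 clusters were at or below 0.793 CPM. The median depth was 19655 UMIs in the nascent mesoderm-like cells and 28223 in the naive-like ones, so the cells with most Cyp26a1 were not the deeper ones.

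**Figure D3:**
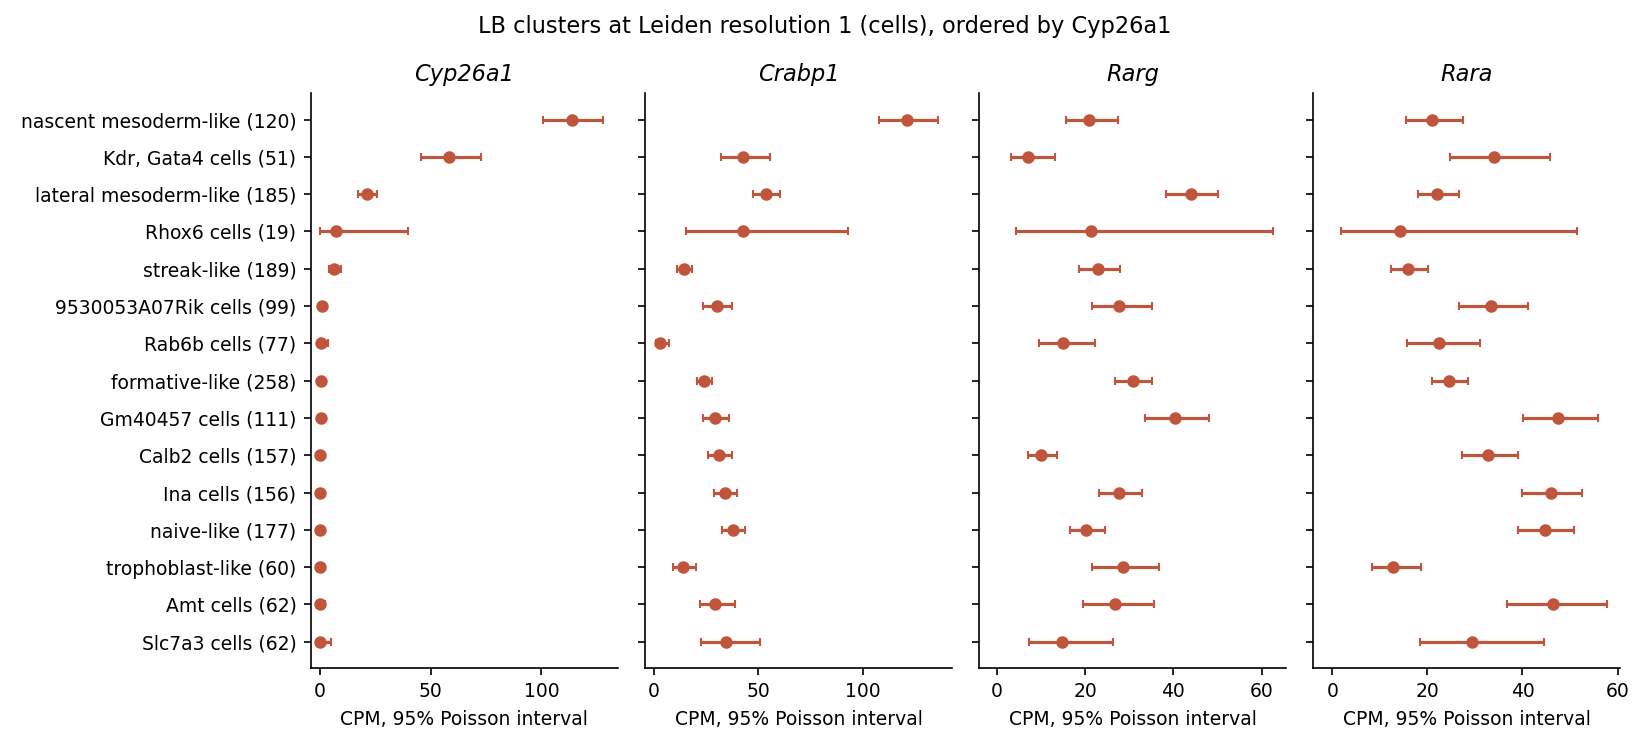
Levels of Cyp26a1, Crabp1, Rarg and Rara (CPM, 95% Poisson interval) in the 15 LB clusters of the finer clustering, ordered by Cyp26a1, with the number of cells in parentheses and unnamed clusters called by a leading gene. The nascent mesoderm-like cells have the highest Cyp26a1 and Crabp1 points, while Rara is higher in the naive-like cells than in them.

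Cell by cell, Cyp26a1 went with Mesp1, a transcription factor of the earliest mesoderm leaving the primitive streak. Of 64 thinned LB cells with Cyp26a1, 34 also held Mesp1 (53.1%), which was in 8.14% of all thinned LB cells. In the other direction, 24.1% of 141 Mesp1 cells held Cyp26a1 (17.3 to 32.0), against 1.88% of 1592 cells without Mesp1 (1.28 to 2.68). For Hand1, a factor of later extraembryonic and lateral mesoderm, the shares were 10.8% of 241 cells and 2.55% of 1492. For T they were 6.13% of 310 cells and 3.16% of 1423. Among T cells, 21.0% of the 62 that also held Mesp1 carried Cyp26a1 (11.7 to 33.2), against 2.42% of the 248 without Mesp1 (0.893 to 5.19). Cells with Klf4, a naive pluripotency factor, carried it in 0.375% (1 of 267), and cells with Nanog in 1.20% (6 of 499). For Sox17, an endoderm factor, and for Aldh1a2 the joint counts were 0 of 14 and 0 of 9 cells, too few to show a difference.

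Splitting cells by Mesp1 and Hand1 together gave 29.3% with Cyp26a1 when both were detected (17 of 58, 18.1 to 42.7) and 20.5% with Mesp1 alone (17 of 83, 12.4 to 30.8), and these intervals overlap. With Hand1 alone the share was 4.92% (9 of 183, 2.27 to 9.13), and with neither 1.49% (21 of 1409, 0.925 to 2.27). For Rara the 4 classes ran from 12.0% to 15.3%, all overlapping. Median depths were 20655, 22407, 27109 and 26122 UMIs in the 4 classes before thinning.

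**Figure D4:**
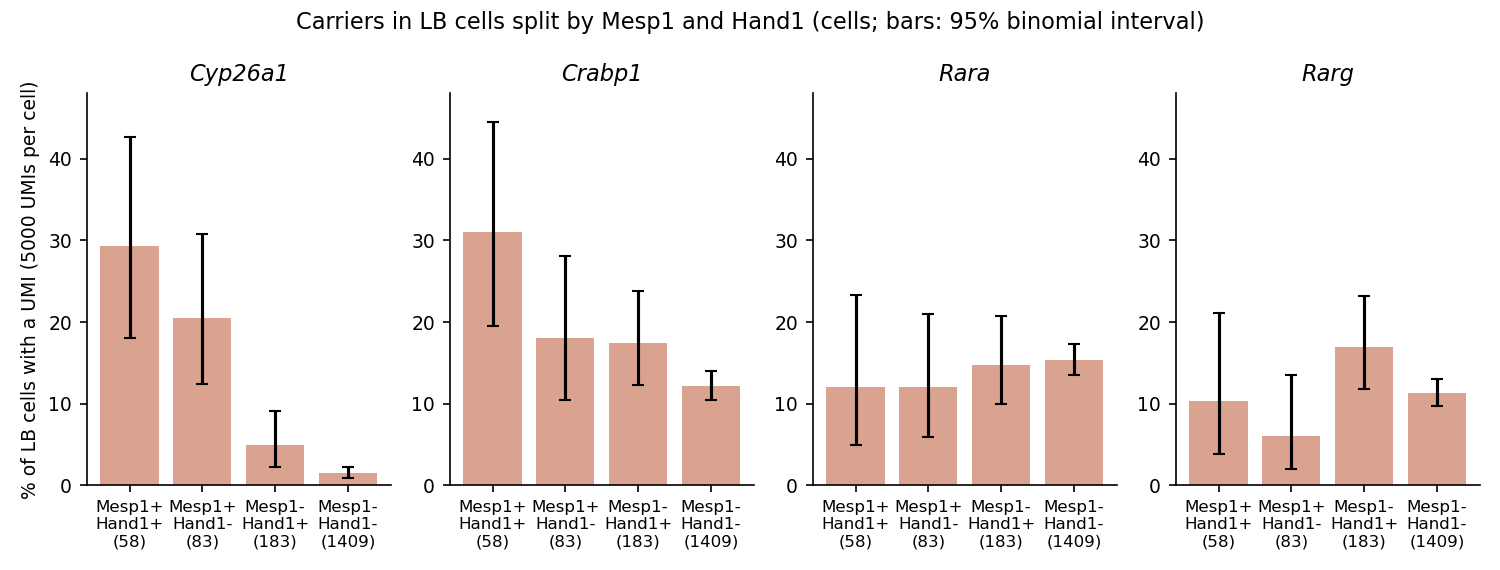
Share of thinned LB cells with a UMI of Cyp26a1, Crabp1, Rara or Rarg, split by detection of Mesp1 and Hand1 (number of cells in parentheses; bars start at 0, whiskers are exact 95% binomial intervals). Cyp26a1 is at 29.3% and 20.5% in the 2 classes with Mesp1 and at 4.92% and 1.49% in the 2 without, while Rara shows no such step.

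Crabp1, a cytosolic retinoic acid carrier (ENSMUSG00000032291, chr9:54764748-54773110), was higher in LBPXRS. It had 1603 UMIs in LB and 5299 in LBPXRS, or 35.2 CPM (33.5 to 37.0) and 102 CPM (99.5 to 105). The ratio was 2.90 (2.74 to 3.07), with a log2 ratio of 1.51. It was found in 13.6% of thinned LB cells (12.0 to 15.3) and 35.7% of thinned LBPXRS cells (33.9 to 37.6). Across the 7 LBPXRS clusters its level stayed between 85.5 and 150 CPM, so the higher level was shared by all of them. Across LB it ranged from 8.54 CPM in streak-like cells (6.18 to 11.5) to 71.8 CPM in mesoderm-like cells (66.2 to 77.7). The mesoderm-like level did not overlap the next ones, 35.0 CPM in the cells led by Slc7a3 and 34.0 CPM in naive-like cells, and those 2 did overlap. In the finer clustering the nascent mesoderm-like cells reached 121 CPM (108 to 136). There, streak-like cells were at 14.4 CPM (interval reaching up to 18.5), and the lowest level was 3.12 CPM (1.01 to 7.28), in 77 unnamed cells led by Rab6b. Split by single markers, 2.82% of 248 cells with T and no Mesp1 carried it (1.14 to 5.73), against 27.8% of 79 cells with Mesp1 and no T (18.3 to 39.1). Cells with neither carried it in 14.6%.

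Crabp2, the carrier that can hand retinoic acid to the receptors in the nucleus (ENSMUSG00000004885, chr3:87948666-87953376), was lower in LBPXRS. It had 360 UMIs in LB and 205 in LBPXRS, or 7.91 CPM (7.12 to 8.78) and 3.96 CPM (3.43 to 4.54), a ratio of 2.00-fold (1.68 to 2.39). It was found in 3.81% and 2.06% of thinned cells, whose intervals, 2.96 to 4.82 and 1.55 to 2.68, do not overlap. In LB it was at 13.7 CPM (11.3 to 16.5) in formative-like, 11.3 in mesoderm-like, 10.8 in trophoblast-like and 10.1 in streak-like cells, all overlapping. Naive-like cells were at 3.53 CPM (2.68 to 4.56) and cells led by Calb2 at 3.22 CPM. Against the naive-like LB cells alone the log2 ratio was 0.13, in place of -0.85.

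Rara (ENSMUSG00000037992, chr11:98927818-98974942), the widely expressed retinoic acid receptor, was present in both libraries. It had 1408 UMIs in LB and 1120 in LBPXRS, or 31.0 CPM (29.4 to 32.6) and 21.6 CPM (20.4 to 22.9), a ratio of 1.43-fold (1.32 to 1.55) and a log2 ratio of -0.50. Genes of chromosome 11 as a whole were lower in LBPXRS: the median log2 ratio of its 465 genes with a mean of at least 20 CPM was -0.65, against -0.16 over all 4731 such genes. The part of this shift in the Rara value was not tested. Within LB, Rara had its highest level in naive-like cells, 44.6 CPM (41.4 to 47.95), above the next cluster, the cells led by Calb2, at 31.3 CPM (26.3 to 37.0). It was at 24.2 CPM in formative-like, 23.2 in mesoderm-like, 18.3 in streak-like and 12.6 in trophoblast-like cells, neighbours that overlapped in pairs. Against the naive-like LB cells alone, the log2 ratio was -1.01.

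Rarb (ENSMUSG00000017491, chr14:16430839-16819156, minus strand), the receptor best known as a target of retinoic acid itself, was detected in LB alone, at few counts. It had 13 UMIs in 11 LB cells, or 0.286 CPM (0.152 to 0.489), with 3 UMIs in the highest cell. In LBPXRS there were 0 UMIs in 2705 cells, a count that, with 3 counts as the limit, allows up to 0.111% of cells with a UMI. Against a floor of 3 UMIs for the LBPXRS library, the level in LB was at least 4.94-fold higher, a bound that leaves out the counting error of the 13 UMIs. With that error included, the exact lower limit of the ratio was 3.47. The mesoderm-like cluster held 10 of the 13 UMIs, at 1.17 CPM (0.560 to 2.15), and naive-like cells held 0. The annotated gene overlaps Top2b on the opposite strand, which had 696 UMIs in LB and 434 in LBPXRS. Whether the counting used strand is not given in the sources used here, so reads from the 2 genes may not be fully separate.

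Rarg (ENSMUSG00000001288, chr15:102234938-102257517, minus strand), the receptor prominent in the early embryo and its primitive streak, was lower in LBPXRS. It had 1198 UMIs in LB and 303 in LBPXRS, or 26.3 CPM (24.9 to 27.9) and 5.85 CPM (5.21 to 6.54). The ratio of CPM was 4.51-fold (3.97 to 5.13), and with the pseudocount of 1 the log2 ratio was -1.997, just short of 4-fold. With the barcodes shared by the libraries left out it was -2.01, past 4-fold, and 2 members were then counted. Of thinned LB cells 11.6% held it (10.1 to 13.2), against 2.44% of thinned LBPXRS cells (1.89 to 3.11). The difference was also present against naive-like LB cells alone, with a log2 ratio of -2.08. Unlike Cyp26a1, Rarg was spread over LB, though not evenly. Mesoderm-like cells were at 32.1 CPM, formative-like at 29.2, trophoblast-like at 28.5, naive-like at 27.9 and streak-like at 21.8. Each overlapped its neighbour, which need not hold for the ends of this order. The cells led by Calb2 were lowest at 9.67 CPM (6.97 to 13.1). In the finer clustering Rarg ranged from 6.97 to 44.0 CPM. The highest level was in extraembryonic or lateral mesoderm-like cells, while nascent mesoderm-like cells were at 20.9 CPM. In LBPXRS the cells led by Id3, Krt8 and Krt18 had 10.2 CPM (8.44 to 12.1), and the clusters led by Spry2, Chac1, Gata2 and Tuba3a had 3.73 to 6.26 CPM.

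Few LB cells carried several of the 8 genes at this depth. Of the thinned LB cells, 59.9% held none, 31.8% held 1 and 7.56% held 2. Of the 64 Cyp26a1 cells, 14 held Crabp1 (21.9%, 12.5 to 34.0), against 13.3% of cells without Cyp26a1 (11.7 to 15.03), and these intervals overlap. With 64 cells, the overlap does not show that the 2 genes are unrelated. Unthinned, where detection also follows depth, 104 of 166 Cyp26a1 cells held Crabp1, which was in 43.9% of all kept LB cells. Over the 1733 thinned LB cells, the genes whose log2(UMIs + 1) was most like that of Cyp26a1, among 9609 genes found in at least 2% of cells, were Mesp1 (Pearson r 0.35), Lhx1 (0.29), Fn1 (0.28), Bmp2 (0.26) and Inka1 (0.25). These cells share 1 library, so no p is given. For Crabp1, Crabp2, Rara and Rarg no gene reached an r above 0.16, which at these sparse counts singles out no partner.

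The wider retinoid list held 53 genes, of which 52 had a UMI and 15 reached 10 CPM in either library. Of these 15, 1 was at least 4-fold lower in LBPXRS, against 2.88% of all genes, and 1 at least 4-fold higher, against 2.04%. At 2-fold, 2 of the 15 were lower and 2 higher, counts near the shares of all genes (10.4% and 7.98%). Their median log2 ratio was -0.38, beside -0.17 over all genes. Stra8, a germ cell gene first found through its response to retinoic acid, was the one at least 4-fold higher, with 39 UMIs in LB and 538 in LBPXRS, or 0.857 CPM (0.610 to 1.17) and 10.4 CPM (9.52 to 11.3). Its log2 ratio was 2.62, and it was at 8.29 CPM or more in all 7 LBPXRS clusters, while 26 of its 39 LB UMIs were in naive-like cells and 9 in the cells led by Calb2. Rbp4, the retinol carrier of blood, was at 4.001 and 11.2 CPM (log2 ratio 1.29), and Rdh11, a retinal reductase, at 20.6 and 8.14 CPM (-1.24).

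The other 10 genes given here were nearer to the bulk of genes. Among enzymes of the retinol step, Dhrs4 had a log2 ratio of -0.94, Rdh14 -0.68, Rdh13 0.37 and Adh5 -0.01. Fabp5, another carrier of retinoic acid, was at 187 CPM in LB and 111 CPM in LBPXRS (-0.74). Of the receptor partners and coregulators, Rxrb was at -0.38, Ncor1 at -0.34, Med1 at -0.71, Hdac3 at -0.32 and Ncoa3 at 0.61. Of the other Cyp26 and Aldh1a genes on the list, 3 had few UMIs: Cyp26b1 had 1 UMI in LB and 2 in LBPXRS, Cyp26c1 0 and 6, and Aldh1a1 0 and 1 (named after their values were seen). The remaining one, Aldh1a3, had 58 and 230.

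**Figure D5:**
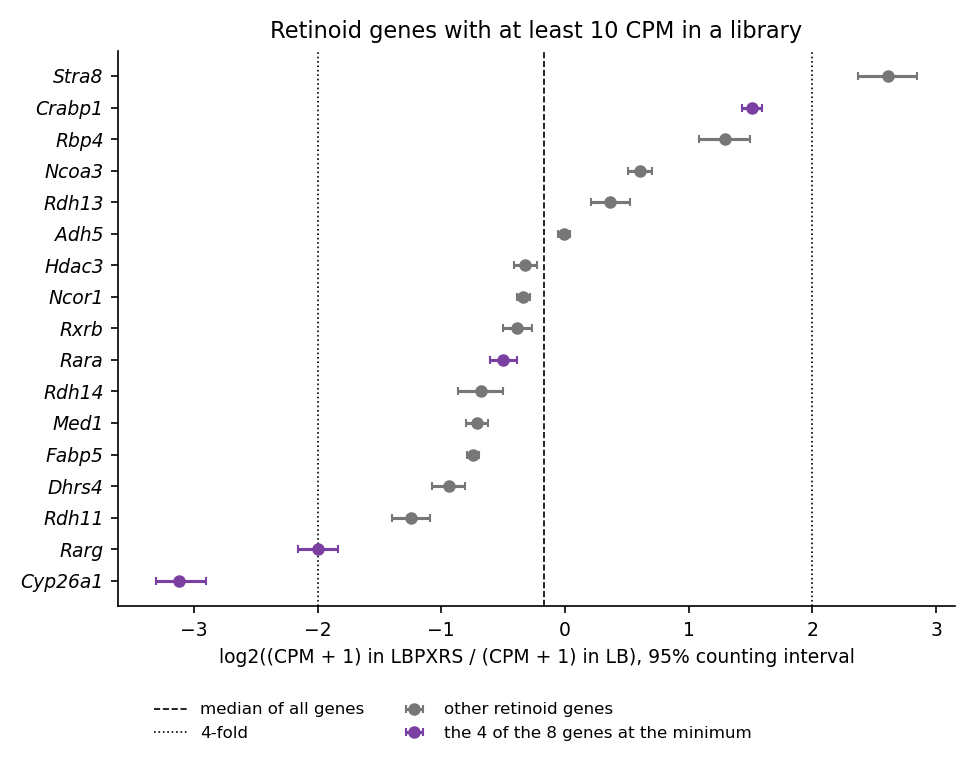
Log2 ratio of LBPXRS to LB, with a pseudocount of 1 CPM and a 95% counting interval, for 13 of the 15 listed retinoid genes (grey) and the 4 members (purple) with at least 10 CPM in a library. Dotted lines mark 4-fold and the dashed line the median of all genes, -0.17; Cyp26a1 lies left of the lower line and Stra8 right of the upper one.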

How the data were processed

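Per the submitters' processing notes, the authors made the matrices with Cell Ranger 4.0.0 on mm10. The deposited values are raw UMI counts per gene and cell barcode. The annotation and strand setting behind these counts are not given in the sources used here. The deposited gene identifiers were matched to GENCODE M21, in which 99.6% of 32285 were found.

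From these counts, barcodes with at least 1000 genes and at most 10% mitochondrial UMIs were kept, which left out 225 of 2008 in LB and 406 of 3111 in LBPXRS. UMIs were summed over kept cells and scaled to CPM. Count and ratio intervals are exact Poisson and conditional binomial, and shares are exact binomial (Clopper-Pearson), all at 95%; for a count of 0, limits on shares of cells and the bound on a fold use a floor of 3 counts, while plotted CPM intervals end at the exact Poisson limit. Intervals do not cover differences between cultures. With 1 library per condition, no test between conditions was possible, and differences were counted by size (4-fold or 2-fold, at 10 CPM or more in either library).

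Each library was clustered with scanpy 1.11.5 (10000 UMIs per cell, 2000 variable genes, 30 components, 15 neighbours, Leiden resolution 0.5) without the 8 members and the 53 retinoid genes. The class with most raised markers named a cluster, which meant 3 or more markers at 5 CPM or higher whose log2 ratio to the other cells was 1 or more. It also needed a marker of the class among the 10 genes with the highest fold at 20 CPM or more, a median marker log2 ratio of 1 or more, no tie and no more markers of another class among those genes. These limits were chosen with the clusters in view, and the requirement of a leading marker left 1 LBPXRS cluster of 52 cells, led by Pmel, Gla and Hspa5, without the name primitive endoderm-like. No LBPXRS cluster of the main clustering has a name. The rule named 191 LBPXRS cells led by Krt8, Krt18 and Krt19 trophoblast-like at resolution 1, a clustering whose levels are not given here for LBPXRS. At resolution 1 the marker rule would have named the 51 LB cells led by Kdr primitive endoderm-like; Kdr is an endothelial marker, so they are called by their leading genes. Scrublet marked 12 LB cells (0.673%) and 14 LBPXRS cells (0.518%) as doublets, which were kept.

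Named genes were the 8 members, listed retinoid genes at 10 CPM or more, the markers T, Mesp1, Hand1, Cdx2, Nanog, Klf4, Dnmt3b and Sox17, and, for members in at least 2% of thinned LB cells, the 5 genes with the highest Pearson r. Of the listed genes at that minimum, 2 are counted but not reported here. The members and lists were chosen with earlier results of these data known. Alternatives were a pseudocount of 0.1, TMM scaling (edgeR 4.0.16), other cell filters, doublets left out, thinning to 2500 or 10000 UMIs or none, another random seed, Leiden resolution 1, and restrictions of the LB cells. The steps that count genes were checked on simulated counts.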

Additional observations from a re-analysis of the deposited data

Results flagged for a closer look

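The barcodes left out by the filters on genes and mitochondrial UMIs carried UMIs of the members above the limit that a count of 0 allows. These barcodes enter none of the main comparisons. An alternative that used all deposited barcodes left the log2 ratios of the 8 members within counting error, with Cyp26a1 at -3.11. In the 225 left-out LB barcodes, Cyp26a1 was at 9.46 CPM (7 UMIs), Crabp1 at 18.9 CPM (14), Crabp2 at 8.11 CPM (6), Rara at 20.3 CPM (15) and Rarg at 13.5 CPM (10). In the 406 left-out LBPXRS barcodes, Crabp1 was at 71.4 CPM (52 UMIs), Dhrs3 at 6.87 CPM (5), and Rara and Rarg at 9.61 CPM each (7).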

How the results depend on the processing

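No paired analysis was possible because each condition is 1 library. Of 250 recomputed values, 160 stayed the same, 88 moved and 2 reversed. Staying the same meant within counting error, 1.5 times the reported count or, for the retinoid list's median, a small fixed difference. Only a log2 ratio past 4-fold in the main setting could count as reversed, which among the members held for Cyp26a1 alone. Changes of sign in Crabp2 (-0.85 to 0.13 and 1.18) and Aldh1a2 (-0.51 to 0.25), both against naive-like LB cells, therefore count as moved. Restrictions to other LB cells than the planned naive-like ones, the omission of shared barcodes and the expected share over all draws were chosen after seeing the data.

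Log2 ratios with a pseudocount of 0.1 were -4.56 for Cyp26a1, -1.46 for Aldh1a2, 1.19 for Dhrs3 and -1.95 for Rarb, and 2 members were at least 4-fold lower, Rarg being the added one. With TMM scaling, which moved the median of all genes from -0.17 to -0.01, Crabp1 was at 1.66 and Rara at -0.35. Rarb, with 0 UMIs in LBPXRS, has a counting interval that was passed by small shifts, to -0.36 with at least 2000 genes per cell, -0.37 without doublets and -0.36 without shared barcodes. Without shared barcodes 2 members were 4-fold lower.

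Against naive-like LB cells alone, Cyp26a1 reversed to 0.067, Aldh1a2 moved to -0.19, Dhrs3 to 2.06, Crabp2 to 0.13, Rara to -1.01 and Rarb to 0 (0 UMIs in both). With the naive-like cells of resolution 1, Cyp26a1 reversed to 0.19, and Aldh1a2 was at 0.25, Dhrs3 2.23, Crabp1 1.41, Crabp2 1.18, Rara -1.02, Rarb 0 and Rarg -1.63. Then 0 members were 4-fold lower, 0 listed retinoid genes were 4-fold higher, and that list's median was -0.083. Outside the mesoderm-like LB cluster, Cyp26a1 was at -0.90, Crabp1 1.89 and Rarb -0.11, with 0 members 4-fold lower. With no CPM minimum, 3 listed genes were 4-fold lower and their median was -0.034.

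Shares of cells follow the depth they are read at. Thinned to 2500 UMIs, LB shares were 2.15% for Cyp26a1, 0.227% for Dhrs3, 7.81% for Crabp1, 2.72% for Crabp2, 7.30% for Rara and 6.40% for Rarg. In LBPXRS they were 20.3% for Crabp1, 0.746% for Crabp2, 5.37% for Rara and 1.72% for Rarg. Thinned to 10000 UMIs, LB shares were 6.18% for Cyp26a1, 22.4% for Crabp1, 7.38% for Crabp2, 25.9% for Rara and 20.7% for Rarg. In LBPXRS they were 0.279% for Aldh1a2, 3.59% for Dhrs3, 56.2% for Crabp1, 3.51% for Crabp2, 17.9% for Rara and 6.46% for Rarg.

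Unthinned, LB shares were 9.31% for Cyp26a1, 1.46% for Aldh1a2, 3.53% for Dhrs3, 43.9% for Crabp1, 13.9% for Crabp2, 48.9% for Rara, 0.617% for Rarb and 41.4% for Rarg. LBPXRS shares were 0.444% for Cyp26a1, 0.370% for Aldh1a2, 6.69% for Dhrs3, 70.6% for Crabp1, 6.54% for Crabp2, 32.2% for Rara and 10.4% for Rarg. Unthinned mesoderm-like LB cells carried Cyp26a1 in 39.4%, Dhrs3 in 5.67%, Crabp1 in 58.9%, Crabp2 in 15.6%, Rara in 41.1%, Rarb in 2.27% and Rarg in 40.2%. With doublets left out, which also redraws the thinning, LB shares were 0.232% for Aldh1a2, 0.465% for Dhrs3 and 16.2% for Crabp1. In LBPXRS they were 1.92% for Dhrs3, 9.78% for Rara and 3.57% for Rarg. Another seed gave 1.95% for Dhrs3 and 3.13% for Rarg in LBPXRS, and the expectation over all draws was 1.79% for Dhrs3.

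The mesoderm-like clusters held 77.0% of Cyp26a1 UMIs at resolution 1 and 92.1% when the members and listed genes were used for clustering. At resolution 1 they held 34.9% of Crabp1 and 11.3% of Rara UMIs. The shares at resolution 1 leave out the 51 cells led by Kdr, which the rule did not name mesoderm-like. Their Cyp26a1 level was next after that of the nascent mesoderm-like cells.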

Other observations

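Several listed retinoid genes stayed below 10 CPM and so outside the counts by size; those named here were chosen after their values were seen. Hoxb1 and Hoxb2, homeobox genes known to respond to retinoic acid, had 256 and 233 UMIs in LB and 1 and 7 in LBPXRS. Within LB, Hoxb1 was at 19.5 CPM (15.8 to 23.7) in streak-like and 16.9 CPM (14.3 to 19.9) in mesoderm-like cells, which overlap. Hoxb2 was at 5.96 CPM (4.02 to 8.51) and 23.2 CPM (20.1 to 26.7) in the same clusters, which do not. Hoxb2 had 0 UMIs in the 585 naive-like cells.

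Rxrg, an RXR partner of the receptors, had 76 UMIs in LB and 1 in LBPXRS. Its LB level was 3.40 CPM in formative-like, 3.18 CPM in streak-like and 3.04 CPM in mesoderm-like cells, and 0.304 CPM in naive-like cells (0.0988 to 0.710). Stra6l, related to the retinol transporter Stra6, had 25 UMIs in LB and 0 in LBPXRS. Aldh1a3, another enzyme that makes retinoic acid, went the other way, with 58 UMIs in LB and 230 in LBPXRS, or 1.28 CPM (0.968 to 1.65) and 4.44 CPM (3.88 to 5.05). In LBPXRS the UMIs of Aldh1a3 were spread over all 7 clusters, from 2.14 to 5.83 CPM.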
